A study of Mus musculus with 13 samples.

Results

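Host loss of Nlrx1 was examined in tumours of 4T1OE-CTL, the transduced control line made beside a line that overexpresses NLRX1, by setting tumours from Nlrx1-/- BALB/c mice against tumours from WT BALB/c mice. The comparison took the 2 arrays titled as Nlrx1-/- tumours of this line and the 2 titled as WT tumours of it, so 4 of the 12 tumour arrays of the series. 4T1 is a mammary carcinoma line that came from a BALB/c mouse. Each array was a Clariom S mouse array hybridised with RNA pooled from tumours that had grown in 1 mammary fat pad and been flash frozen. P-values measure the spread between pools. How many tumours made up a pool, and the age of the mice, are not stated in the labels. The host genotype was the only labelled difference between the groups. The injected cells carried their own Nlrx1 gene in both hosts, so the Nlrx1-/- tumours lacked Nlrx1 only in cells of the host. The other groups, used for comparison, were tumours of 4T1OE, the NLRX1-overexpressing line, with 2 arrays from Nlrx1-/- and 2 from WT hosts, and parental 4T1 tumours, with 1 array from Nlrx1-/- and 2 from WT hosts after the array that the labels recommend leaving out.

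NLRX1 belongs to the NOD-like receptors and sits at mitochondria. It is known for restraining antiviral signalling through MAVS, the mitochondrial adaptor that turns on type I interferon genes, and NF-kB signalling, which drives inflammatory cytokines. A tumour RNA pool mixes the carcinoma cells, which carry keratins, E-cadherin and tight junction genes, with immune cells, fibroblasts and vessels of the host, and interferon gamma from T and NK cells induces GTPases and chemokines in most of these. In such a pool fewer cells of a type and less RNA per cell cannot be told apart.

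Of 22206 features tested, 0 passed an adjusted p of 0.05 in the limma fit, which is 0% of the features. The smallest adjusted p was 0.125. At an unadjusted p under 0.05 there were 2121 features (9.55%), 725 higher in Nlrx1-/- hosts (3.26%) and 1396 lower (6.29%). Every difference below therefore failed the adjusted threshold and is a description of these 4 pools. All levels and differences are on the log2 scale, and a difference is Nlrx1-/- minus WT host.

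The 4 pools did not separate by host over all features. The correlation across features was 0.961 between both Nlrx1-/- arrays and 0.978 between both WT arrays, while Nlrx1-/- replicate 1 correlated at 0.974 with WT replicate 2 and Nlrx1-/- replicate 2 at 0.973 with WT replicate 1. Nlrx1-/- replicate 1 stood apart by genes of B cells, T cells and lymph node stroma, described below. The standard deviation of the values within an array was 2.91 and 2.78 in Nlrx1-/- hosts, against 2.88 and 3.07 in WT hosts, and the median of the negative control features was 5.68 and 5.55 against 5.47 and 5.27. Bright features thus lay lower in Nlrx1-/- hosts by a little throughout: the median difference was -0.15 over the 11103 features above the median level and 0.11 over those below it. With quantile normalization the median over the brighter features was -0.004.

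**Figure D1:**
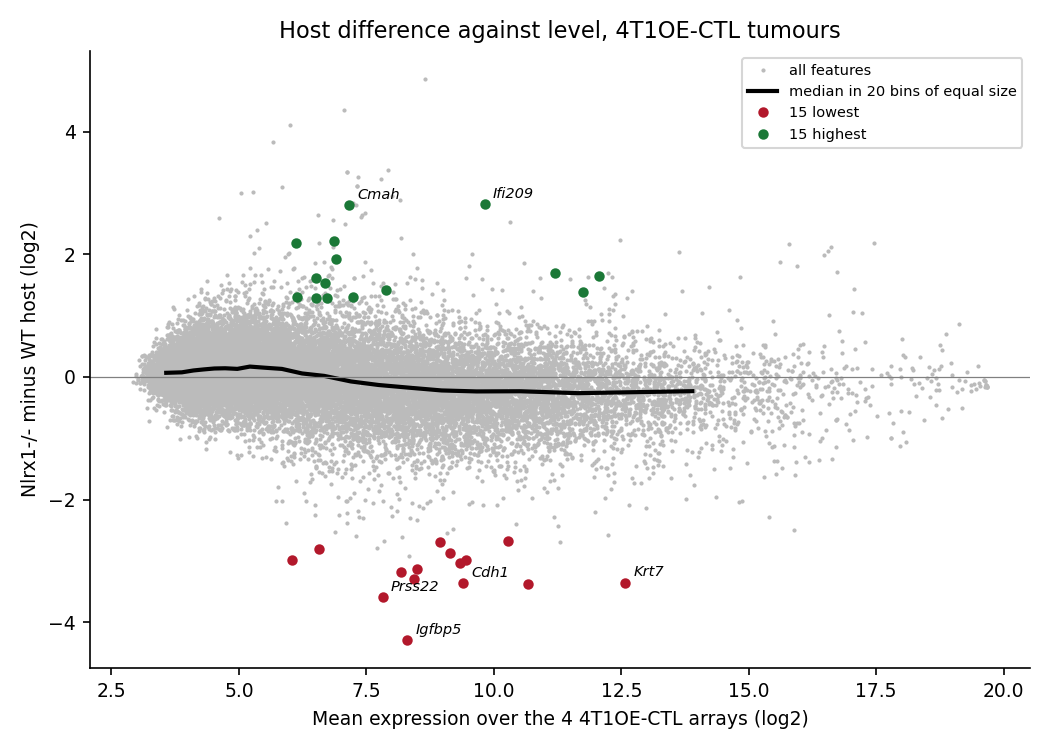
Difference between Nlrx1-/- and WT hosts in 4T1OE-CTL tumours (y axis, log2) against mean expression over the 4 arrays (x axis, log2), 1 grey point per feature, with the running median as a black line and the genes of the 15 lowest and 15 highest differences coloured. The line is above 0 for dim features and below 0 for bright ones, and among the coloured genes Igfbp5 is the lowest at -4.29 and Ifi209 the highest at 2.82.

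Nlrx1 itself had 6.39 and 5.99 in Nlrx1-/- hosts, against 7.06 and 6.93 in WT hosts. Both Nlrx1-/- arrays were below both WT arrays, and all 4 were above the median of their negative control features. The difference was -0.81 (SE 0.407, 95% interval -1.72 to 0.10, limma adjusted p = 0.572), and an exact permutation test of 2 against 2 arrays cannot go below p = 0.333. In 4T1OE tumours, where the injected cells overexpress it, Nlrx1 lay between 9.31 and 10.67 on the 4 arrays. The host difference was 0.65 there and -0.03 in parental tumours. The labels do not state whether the array's feature lies in the deleted part of the gene.

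By the naming rule, 454 features had an unadjusted p under 0.01, a mean above the median feature (6.04) and groups that did not overlap. Of these 413 lay lower in Nlrx1-/- hosts and 41 higher, and the 15 lowest and 15 highest with a gene symbol were named. The rule took only features above the median level, of which 62.4% lay lower whatever their p. Over all features, at any level, 1396 lower and 725 higher had an unadjusted p under 0.05. The 4 genes given as markers of this comparison, Cdh1, Krt7, Tmprss11e and Igfbp5, were all among the 15 lowest. They had been chosen with results of these arrays in view, so their place there is no independent support.

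Cdh1 encodes E-cadherin, which holds epithelial cells together at adherens junctions. It had 7.82 and 7.63 in Nlrx1-/- hosts, against 11.73 and 10.44 in WT hosts. Both Nlrx1-/- arrays stood together and more than 2 log2 units below either WT array. The difference was -3.36 (SE 0.419, 95% interval -4.30 to -2.42, limma adjusted p = 0.125). It lay between -4.01 and -2.71 when any 1 of the 4 arrays was left out. On the other 10 arrays of the series, whichever host or line, Cdh1 was between 10.44 and 13.49.

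Krt7, a keratin of simple epithelia, had 11.47 and 10.33 in Nlrx1-/- hosts, against 15.16 and 13.35 in WT hosts. These were the lowest 2 of the 12 tumour arrays, although the gene remained well above background in both. Its difference was -3.36 (SE 0.560, 95% interval -4.61 to -2.10, limma adjusted p = 0.232). Tmprss11e, a membrane-bound serine protease of epithelial cells, had 9.40 and 8.54 in Nlrx1-/- hosts, against 12.90 and 11.82 in WT hosts, a difference of -3.38 (SE 0.454, limma adjusted p = 0.125). It too was lower on these 2 arrays than on the other 10.

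Igfbp5, a secreted binding protein of insulin-like growth factors, behaved differently from the other markers across the series. It had 7.11 and 5.20 in Nlrx1-/- hosts, against 9.44 and 11.45 in WT hosts, a difference of -4.29 (SE 0.976, limma adjusted p = 0.312). Nlrx1-/- replicate 2 was under the median of its negative control features. Here the WT arrays were the ones that stood apart: the 8 arrays of the other lines ran from 4.81 to 8.0, close to the Nlrx1-/- values. A fit that also took each array's standard deviation as a covariate gave -2.63.

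**Figure D2:**
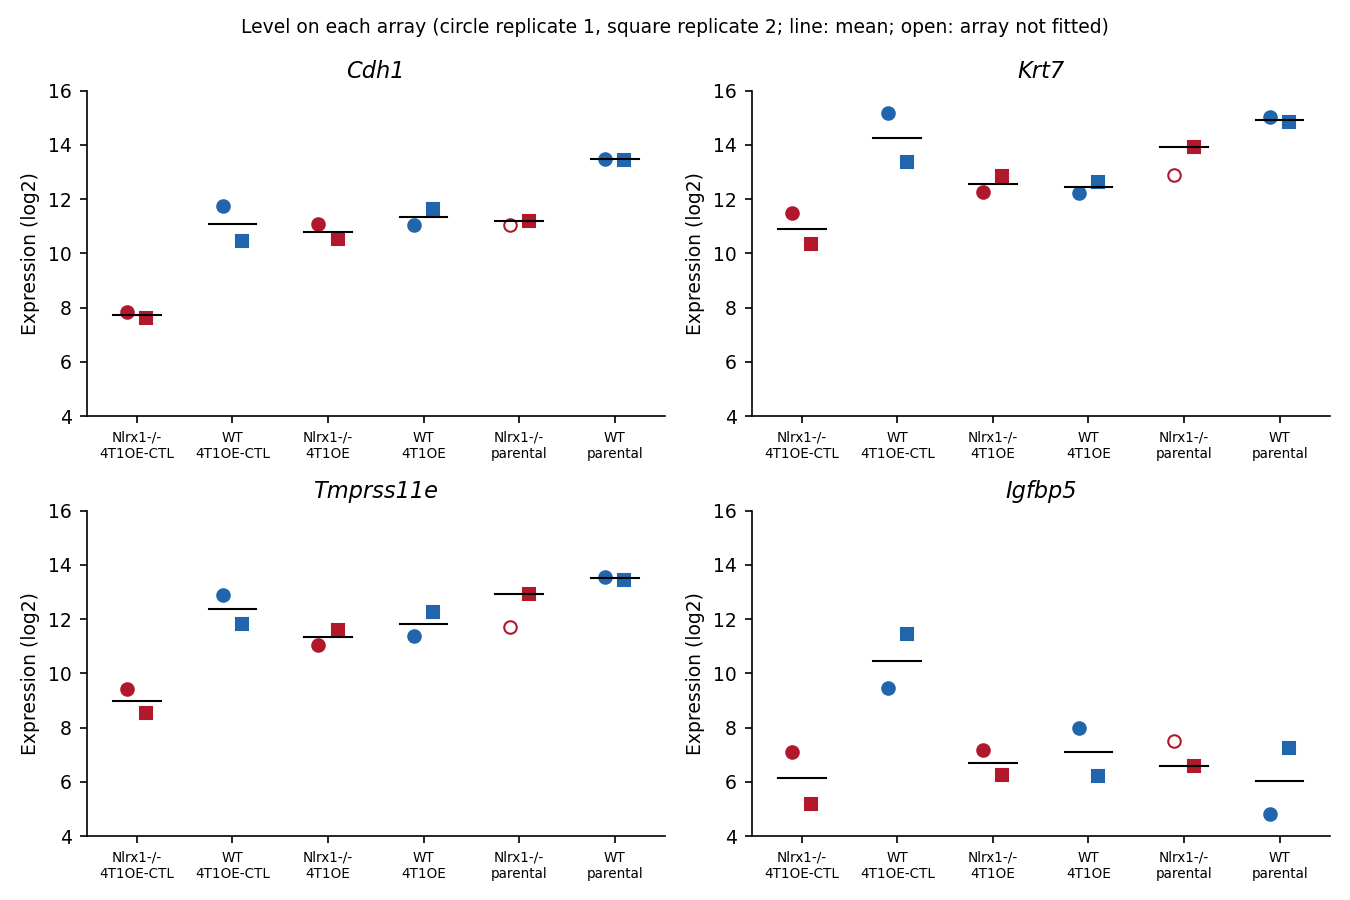
Expression (y axis, log2) of Cdh1, Krt7, Tmprss11e and Igfbp5 on all 12 tumour arrays, with Nlrx1-/- hosts in red left of WT hosts in blue for each cell line, circles for replicate 1, squares for replicate 2, lines for the mean of the fitted arrays and an open circle for the array left out. The Nlrx1-/- 4T1OE-CTL arrays are the lowest of the series for Cdh1, Krt7 and Tmprss11e, whereas for Igfbp5 the WT 4T1OE-CTL arrays are the highest.

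The other 11 of the 15 lowest are given here by what they encode. Proteins of the cell surface, junctions, matrix or secretion were encoded by Prss22, a secreted serine protease, Cldn4, a tight junction claudin, Msln, the surface protein mesothelin, Lamb3, a laminin chain of the basement membrane, and Itga2, a collagen-binding integrin. Prss22 had 5.67 and 6.37 in Nlrx1-/- hosts, against 9.48 and 9.75 in WT hosts. The replicates lay close together on either side, and the difference was -3.59 (SE 0.628, limma adjusted p = 0.252). Nlrx1-/- replicate 1 was just under the median of its negative control features for Prss22. Msln was under the negative control median in both Nlrx1-/- pools and had 7.72 and 7.37 in WT hosts, so it was at least 1.93 lower in Nlrx1-/- hosts. Itga2 had 8.44 and 9.45 in Nlrx1-/- hosts, against 12.31 and 10.94 in WT hosts.

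Ccl3, a chemokine which attracts monocytes, had 7.28 and 8.66 in Nlrx1-/- hosts, against 11.92 and 9.99 in WT hosts. Cxcl14, a chemokine made by epithelia and fibroblasts, had 9.38 and 6.26 in Nlrx1-/- hosts, against 10.60 and 11.08 in WT hosts. Its difference was -3.03, and -1.47 without Nlrx1-/- replicate 2. Cxcl2, a neutrophil chemokine, had 5.99 and 7.59 in Nlrx1-/- hosts, against 11.91 and 8.26 in WT hosts. For Cxcl2 most of the difference of -3.29 came from WT replicate 1. Without that array it was -1.47. The same held for Cldn4 (-3.14, and -1.51 without it) and Hcar2, a nicotinic acid and ketone body receptor of myeloid and fat cells (-2.69 and -1.30). The difference of Lamb3 was -2.81, and -1.52 without WT replicate 1, so the larger part of it remained. Lamb3 was under the negative control median on Nlrx1-/- replicate 1. Ibsp, a bone sialoprotein, differed by -3.18 and Gm4841 by -2.86. Gm4841 had 7.56 and 7.88 in Nlrx1-/- hosts, against 11.43 and 9.73 in WT hosts. As for Igfbp5, the WT pools were the highest of the series for Gm4841 and Cxcl2. The arrays of the other lines ran from 5.79 to 8.94 for Gm4841 and from 5.58 to 8.20 for Cxcl2, around the Nlrx1-/- values.

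The 15 highest differences were smaller, from 2.82 down to 1.29. The first of them rested on Nlrx1-/- replicate 1. Ifi209, an interferon-inducible gene of the p200 family, had 12.83 and 9.63 in Nlrx1-/- hosts, against 8.23 and 8.59 in WT hosts. Cmah, which makes a sialic acid form, had 9.89 and 7.21 in Nlrx1-/- hosts, against 5.72 and 5.78 in WT hosts. Replicate 1 was the higher Nlrx1-/- array for both. Without replicate 1 the differences were 1.22 for Ifi209, against 2.82 with it, 1.46 for Cmah, against 2.80, and 1.23 for B3gnt5, a glycosyltransferase, against 2.22. Ifit1bl1, an interferon-inducible gene, was under the negative control median in both WT pools and was at least 1.85 higher in Nlrx1-/- hosts. This too rested on replicate 1: the gene had 8.36 and 6.08 in Nlrx1-/- hosts, against 4.96 and 5.11 in WT hosts, and the fitted difference of 2.19 was 1.04 without replicate 1.

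Selenop, the secreted selenium carrier, had 13.38 and 12.42 in Nlrx1-/- hosts, against 10.93 and 11.56 in WT hosts (difference 1.65). Ppp1r9b, a regulatory subunit of protein phosphatase 1, had 12.70 and 12.20 in Nlrx1-/- hosts, against 10.73 and 11.39 in WT hosts (difference 1.39). Mppe1, a metallophosphoesterase, had 8.79 and 8.40 in Nlrx1-/- hosts, against 7.09 and 7.26 in WT hosts. Its difference of 1.42 (SE 0.265, limma adjusted p = 0.252) was the most even of the 15 across the left-out arrays, at 1.22 to 1.61. The remaining genes of the 15 were Ets1, a transcription factor of lymphocytes and endothelium (1.69), Sidt1 (1.92), Mbd4, a DNA glycosylase (1.61), Uqcc1, an assembly factor of respiratory complex III (1.52), Tubd1, a delta tubulin (1.30), Sh2d1b2 (1.29), ccdc198 (1.29) and Defb45, a beta-defensin (1.29). Single arrays weighed on 5 of these. Without Nlrx1-/- replicate 1 the difference was 0.99 for Ets1 and 1.12 for Sidt1. Without WT replicate 1 it was 0.93 for Mbd4 and 0.98 for Uqcc1, and without Nlrx1-/- replicate 2 it was 0.76 for Sh2d1b2. WT replicate 1 was under its negative control median for Mbd4, Uqcc1 and Tubd1.

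**Figure D3:**
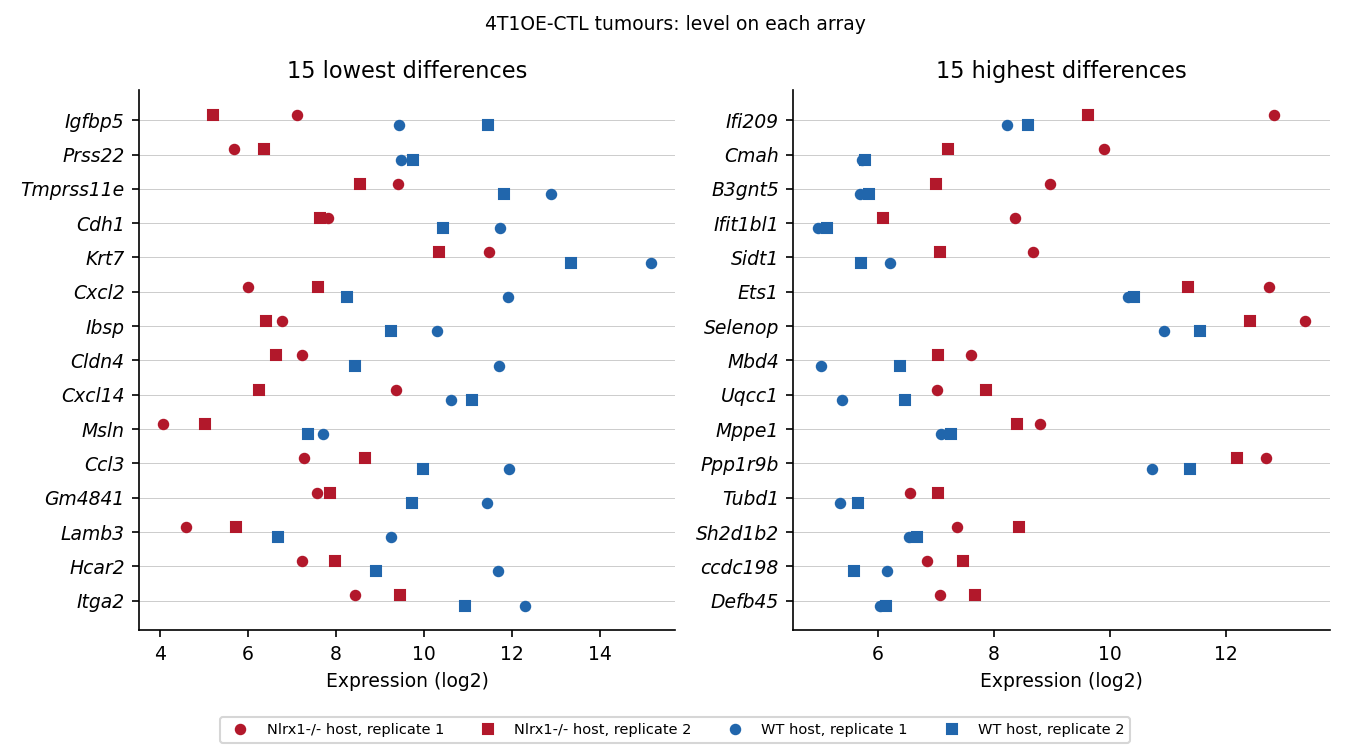
Expression (x axis, log2) of the 15 genes with the lowest and the 15 with the highest difference in 4T1OE-CTL tumours, Nlrx1-/- hosts in red above WT hosts in blue, circles for replicate 1 and squares for replicate 2. WT replicate 1 is far above WT replicate 2 for Cxcl2, Cldn4, Lamb3 and Hcar2, and Nlrx1-/- replicate 1 far above replicate 2 for Ifi209, Cmah and B3gnt5.

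Epithelial genes as a list showed the same direction less evenly. Of 35 genes of epithelial adhesion and identity, 33 were measured and 23 lay lower in Nlrx1-/- hosts, with a median difference of -0.54. Over all features the median was 0.003, and 49.7% lay lower. Groups did not overlap for 16 of them in the lower and 2 in the higher direction, where 18% and 16.1% of all features did so. At an unadjusted p under 0.05 there were 11 lower and 1 higher (6.29% and 3.26% of all features), and 0 passed the adjusted threshold. The median was between -0.54 and -0.47 whichever of the 4 arrays was left out and -0.40 after quantile normalization. Epcam, an adhesion molecule of carcinoma cells, had 6.94 and 7.06 in Nlrx1-/- hosts, against 9.81 and 8.57 in WT hosts (difference -2.19). Macc1, an inducer of the MET receptor, had 6.14 and 4.60 in Nlrx1-/- hosts, against 7.44 and 7.82 in WT hosts (-2.26, and -1.49 without Nlrx1-/- replicate 2). On that replicate Macc1 was under the negative control median. The desmosomal cadherin Dsg2 differed by -1.53, and Ocln, the tight junction protein occludin, was at least 0.95 lower, since it was under the negative control median in both Nlrx1-/- pools. Not all epithelial genes took that direction: Grhl1, an epithelial transcription factor, had 5.92 and 6.32 in Nlrx1-/- hosts, against 5.24 and 5.29 in WT hosts.

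Membrane serine proteases and their inhibitors were all measured, 18 of 18. Of these 13 lay lower, 10 without overlap (18% of all features), and 3 lay higher without overlap (16.1% of all features). The median was -0.26, and -0.40 without WT replicate 1 or without Nlrx1-/- replicate 1. St14, the protease matriptase, had 5.92 and 5.77 in Nlrx1-/- hosts, against 8.53 and 7.67 in WT hosts. Its difference was -2.25 (SE 0.341, limma adjusted p = 0.186). The serpin Serpinb5 differed by -1.97, and Plau, the urokinase plasminogen activator, by -1.14. Among 12 measured keratins of 14, by contrast, 5 lay lower and the median was 0.12, which was -0.43 without Nlrx1-/- replicate 1. The 5 lower keratins were Krt7, Krt18 (-1.51, and -0.98 without Nlrx1-/- replicate 2), Krt80 (-1.30), Krt8 (-0.91) and Krt19, which was at least 0.11 lower. Krt80 was under the negative control median on Nlrx1-/- replicate 2. Krt18, a partner of Krt8 in simple epithelia, had 14.10 and 13.05 in Nlrx1-/- hosts, against 15.34 and 14.82 in WT hosts, and so was bright in all 4 pools. Krt15, a basal cell keratin, was at least 0.59 higher.

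Transcription factors and matrix genes of epithelial-mesenchymal transition did not run opposite to the epithelial genes. Of 13 such genes 12 were measured, 9 lay lower, 6 of them without overlap (18% of all features), and 0 lay higher without overlap (16.1%). The median was -0.44. It was -0.23 without Nlrx1-/- replicate 1, -0.27 without WT replicate 2 and -0.26 when the array standard deviation was a covariate. Sparc, a matrix protein, had 16.38 and 16.69 in Nlrx1-/- hosts, against 17.62 and 17.51 in WT hosts (difference -1.03). Snai1, a repressor of Cdh1, had 6.52 and 5.90 in Nlrx1-/- hosts, against 7.21 and 6.72 in WT hosts (-0.75). Twist1 differed by -0.37 and Prrx1 by -1.19 (-0.23 without Nlrx1-/- replicate 1). Of the insulin-like growth factor axis 15 of 15 genes were measured, and 10 lay lower with a median of -0.21 (-0.36 without WT replicate 2). Beside Igfbp5 the lowest there was Stc1, a secreted glycoprotein that inhibits the protease Pappa, with 9.50 and 9.61 in Nlrx1-/- hosts, against 10.42 and 12.37 in WT hosts. Its difference was -1.84, and -0.87 without WT replicate 2.

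The repressors of the SNAI and ZEB families bind the hexamer CACCTG, so the 300 bases from 250 before to 50 after the gene starts in RefSeq (GRCm38.p6) were searched for it on both strands. Of 20 genes of the epithelial list with a promoter entry, 14 (70%) held it, against 6098 of 27025 genes with an entry (22.6%). Of the 15 lowest genes 9 had an entry, and 3 of these held it. The share of the epithelial list covers all its members, whichever way they differed, so it does not bear on the host difference. The promoters of 3 epithelial genes that lay lower together are shown, with CACCTG or, for a match on the other strand, CAGGTG in capitals. Krt7 lies at chr15:101412153-101412452 on the plus strand, Cldn4 at chr5:134946885-134947184 on the minus strand and Epcam at chr17:87635729-87636028 on the plus strand. Each is written 5′ to 3′ along its gene. Krt7 held 1 match, Cldn4 2 and Epcam 2. A match is a description of the letters, and binding was not measured.
Krt7: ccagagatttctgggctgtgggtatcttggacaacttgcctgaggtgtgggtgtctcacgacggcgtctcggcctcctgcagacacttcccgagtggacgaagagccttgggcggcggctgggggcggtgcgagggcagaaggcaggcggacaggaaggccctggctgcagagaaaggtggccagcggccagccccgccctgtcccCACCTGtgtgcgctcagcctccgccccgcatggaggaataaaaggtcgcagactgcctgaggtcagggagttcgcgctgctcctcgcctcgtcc
Cldn4: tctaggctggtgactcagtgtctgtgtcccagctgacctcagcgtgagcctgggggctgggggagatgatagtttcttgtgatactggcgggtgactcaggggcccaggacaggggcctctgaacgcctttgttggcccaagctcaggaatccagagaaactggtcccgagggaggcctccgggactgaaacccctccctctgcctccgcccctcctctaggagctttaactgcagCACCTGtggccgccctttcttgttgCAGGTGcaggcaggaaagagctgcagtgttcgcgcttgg
Epcam: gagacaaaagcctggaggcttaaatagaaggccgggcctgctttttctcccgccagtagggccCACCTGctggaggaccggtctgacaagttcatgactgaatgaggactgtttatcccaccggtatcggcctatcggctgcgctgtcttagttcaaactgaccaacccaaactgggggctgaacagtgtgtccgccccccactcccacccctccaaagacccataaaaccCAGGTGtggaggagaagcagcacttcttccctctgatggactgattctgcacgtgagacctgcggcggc

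Interferon gamma response genes lay lower in Nlrx1-/- hosts as a group. Of 31 such genes 23 were measured, and 21 lay lower with a median difference of -0.90. Groups did not overlap for 14, all lower (18% of all features), and 13 had an unadjusted p under 0.05, all lower (6.29% of all features), but 0 passed the adjusted threshold. The median ran from -1.24 to -0.78 when 1 array was left out, and was -0.70 after quantile normalization. A fit with each array's standard deviation as a covariate gave -1.20. For comparison, the median over all features above the median level was -0.15. To place the list in the series, each gene's median over the 11 fitted arrays was subtracted from its value. The list's median deviation was 0.34 and 0.54 in Nlrx1-/- hosts, against 1.83 and 1.23 in WT hosts. All arrays of the other lines were lower, from -2.33 to 0.25. The WT pools thus stood furthest apart, and the Nlrx1-/- pools were not low for the series.

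The leading members were the GTPases that act on vacuoles of intracellular pathogens. Irgm2 had 10.47 and 10.05 in Nlrx1-/- hosts, against 12.45 and 11.45 in WT hosts, a difference of -1.69 (SE 0.399, limma adjusted p = 0.346). Irgm1 had 12.70 and 11.99 in Nlrx1-/- hosts, against 14.35 and 13.48 in WT hosts (-1.57). Gbp2, a guanylate-binding protein, had 13.44 and 14.11 in Nlrx1-/- hosts, against 16.51 and 15.14 in WT hosts (-2.05). WT replicate 1 was the highest pool for all of these, and the groups did not overlap. Gbp7 differed by -1.59 (-0.93 without WT replicate 1). Cxcl9, a chemokine that draws T cells, had 14.14 and 14.40 in Nlrx1-/- hosts, against 16.12 and 15.23 in WT hosts. Ifng itself, the gene of interferon gamma, overlapped between the groups, with 5.56 and 6.33 in Nlrx1-/- hosts, against 5.85 and 7.13 in WT hosts. The receptor genes Ifngr1 (0.18) and Ifngr2 (-0.11) and the transcription factor Irf8 (0.01) differed little.

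Factors of the interferon regulatory family bind pairs of the letters GAAA that stand 2 bases apart, with any bases between them. Of 17 genes of the interferon gamma list with a promoter entry, 9 (52.9%) held such a pair within the same 300 bases on either strand, against 1079 of 27025 genes with an entry (3.99%). This share too covers the list whichever way its members differed, so it does not bear on the host difference. The promoters of 3 GTPases are shown because these members lay lower together, with the matches in capitals. A match on the other strand reads as a pair of TTTC with the same spacing. Irgm2 lies at chr11:58214727-58215026 on the plus strand, Irgm1 at chr11:48871371-48871670 on the minus strand and Gbp2 at chr3:142620413-142620712 on the plus strand. Irgm2 and Gbp2 held 1 match each and Irgm1 2 that overlap. Nothing about binding follows from these letters alone.
Irgm2: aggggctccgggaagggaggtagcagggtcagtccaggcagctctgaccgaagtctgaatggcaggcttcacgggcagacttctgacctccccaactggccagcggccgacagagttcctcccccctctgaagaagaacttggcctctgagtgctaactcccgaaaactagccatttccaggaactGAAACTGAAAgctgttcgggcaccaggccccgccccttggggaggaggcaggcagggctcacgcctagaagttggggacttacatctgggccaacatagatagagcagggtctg
Irgm1: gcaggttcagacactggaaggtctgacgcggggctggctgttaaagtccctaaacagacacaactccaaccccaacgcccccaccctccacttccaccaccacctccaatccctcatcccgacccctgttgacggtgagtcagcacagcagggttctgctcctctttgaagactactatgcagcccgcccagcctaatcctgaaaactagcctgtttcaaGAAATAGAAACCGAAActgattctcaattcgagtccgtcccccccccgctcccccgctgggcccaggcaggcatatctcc
Gbp2: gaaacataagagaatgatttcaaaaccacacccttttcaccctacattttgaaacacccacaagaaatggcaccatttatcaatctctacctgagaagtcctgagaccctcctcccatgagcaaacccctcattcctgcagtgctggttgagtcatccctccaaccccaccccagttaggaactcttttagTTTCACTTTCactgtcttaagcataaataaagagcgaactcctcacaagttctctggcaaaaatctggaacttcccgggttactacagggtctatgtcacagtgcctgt

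MHC class I genes, which present peptides to CD8 T cells, and their loading machinery lay in the same direction. Of 22 genes 19 were measured, and 18 lay lower, where 49.7% of all features and 62.4% of those above the median level did. Groups did not overlap for 13, all lower (18% of all features), and the median was -0.65 (-0.42 after quantile normalization). The list's median deviation was 0.25 and -0.02 in Nlrx1-/- hosts, against 0.58 and 0.77 in WT hosts. On the arrays of the other lines it ran from -0.92 to 0.08, so here too the WT pools stood apart. Psmb9, an immunoproteasome subunit, had 9.85 and 9.25 in Nlrx1-/- hosts, against 10.76 and 11.23 in WT hosts, a difference of -1.45. The chaperone Calr had 15.91 and 16.01 in Nlrx1-/- hosts, against 17.19 and 17.41 in WT hosts (-1.34). Tap2, a peptide transporter, differed by -1.10, Tapbp by -1.05 and H2-D1, a class I heavy chain, by -0.82.

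Of 33 type I interferon response genes 30 were measured and 16 lay lower, with a median of -0.04. The count and the median turned on the Nlrx1-/- arrays: 22 lay lower with a median of -0.54 without replicate 1, and 11 with a median of 0.17 without replicate 2. Groups did not overlap for 8 in the lower and 4 in the higher direction, against 18% and 16.1% of all features. Rsad2, the antiviral protein viperin, was under the negative control median in both Nlrx1-/- pools and had 6.90 and 6.56 in WT hosts, so it was at least 1.11 lower. Mx2, an antiviral GTPase, had 9.25 and 8.07 in Nlrx1-/- hosts, against 7.61 and 7.15 in WT hosts (difference 1.28). Stat2, a transcription factor of the pathway, differed by -1.09, Zbp1, a nucleic acid sensor, by -0.86, and Bst2, the antiviral protein tetherin, by -0.82.

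Of 32 genes of NLRX1, MAVS and innate sensing, the pathway of NLRX1 itself, 28 were measured. Of these 22 lay lower, 6 without overlap (18% of all features), and 3 lay higher without overlap (16.1%). The median was -0.20. That median was -0.41 without Nlrx1-/- replicate 1 and -0.10 without WT replicate 2. Without Nlrx1-/- replicate 2, 14 lay lower, and with the array standard deviation as covariate 13 lay lower and the median was 0.08. Tlr3, a sensor of double-stranded RNA, had 9.84 and 10.29 in Nlrx1-/- hosts, against 11.37 and 10.93 in WT hosts (-1.09). Cgas, a DNA sensor, had 6.12 and 5.69 in Nlrx1-/- hosts, against 6.29 and 7.40 in WT hosts (-0.94). NF-kB targets and cytokines were measured for 31 of 31 genes, of which 28 lay lower with a median of -0.58. Over all features 49.7% lay lower, and 62.4% of those above the median level. Groups did not overlap for 10, all lower (18% of all features). Without WT replicate 1, 20 lay lower with a median of -0.25. Without Nlrx1-/- replicate 1, 21 lay lower with a median of -0.18. Lif, a cytokine of the interleukin-6 family, had 6.13 and 5.88 in Nlrx1-/- hosts, against 9.01 and 7.44 in WT hosts (-2.21, and -1.43 without WT replicate 1), while Ptgs2, which makes prostaglandins, overlapped, with 8.76 and 13.01 in Nlrx1-/- hosts, against 14.17 and 12.02 in WT hosts.

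Genes of glycolysis and the hypoxia response lay lower without exception among those measured, 20 of 22. The median was -0.87. Groups did not overlap for 15, all lower (18% of all features), and 10 had an unadjusted p under 0.05, all lower (6.29%). Among all features above the median level, 62.4% lay lower. Slc2a1, the glucose transporter GLUT1, had 12.92 and 14.79 in Nlrx1-/- hosts, against 16.00 and 15.75 in WT hosts (difference -2.02, and -1.08 without Nlrx1-/- replicate 1). Bnip3, a mitophagy receptor induced by hypoxia, had 8.82 and 9.62 in Nlrx1-/- hosts, against 10.86 and 10.65 in WT hosts (-1.54). The enzymes Pgam1 (-1.81), Hk2 (-1.36) and Pfkp (-1.25) followed. Nlrx1-/- replicate 1 was the lowest pool for all 5 of these, and the list's median was -0.45 without it, against -1.14 without replicate 2.

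Mitotic and S-phase genes, 26 measured of 27, also lay lower without exception, with a median of -0.64 and 14 without overlap (18% of all features). WT replicate 2 carried much of this, since without it 16 of 26 lay lower with a median of -0.20. When the array standard deviation was a covariate, 17 lay lower and the median was -0.32. Kif11, a spindle motor, had 10.97 and 11.21 in Nlrx1-/- hosts, against 12.07 and 12.15 in WT hosts (-1.02). Ccna2 differed by -1.20 and Ccnb2 by -1.15, both cyclins. The list of the unfolded protein and integrated stress response had 19 of 22 measured members lower and a median of -0.52, with the asparagine synthetase Asns at -1.16 and the mTORC1 inhibitor Ddit4 at -1.23. Of 19 p53 targets measured 11 lay lower, with a median of -0.26 that was -0.07 without Nlrx1-/- replicate 2. Cdkn1a, the cell cycle inhibitor p21, had 6.16 and 6.32 in Nlrx1-/- hosts, against 8.42 and 8.43 in WT hosts, a difference of -2.18 (SE 0.550, limma adjusted p = 0.364). Plk2 differed by -1.89.

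Fibroblast and matrix genes lay lower for 20 of 25 measured, where 62.4% of all features above the median level did, and 9 of them without overlap (18% of all features). Only 1 lay higher without overlap (16.1% of all features). The median was -0.69, and it was -0.34 without Nlrx1-/- replicate 1 and -1.14 without WT replicate 2. Lox, a collagen crosslinking enzyme, had 7.69 and 7.79 in Nlrx1-/- hosts, against 9.34 and 8.92 in WT hosts (-1.39). Timp1, an inhibitor of metalloproteinases, differed by -1.98, Lum by -1.11 and Ccn2 by -1.08.

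Markers of other cells in the pools moved with single arrays. To place a list on an array, each gene's median over the 11 fitted arrays was subtracted from its value, and the median of these deviations over the list was taken. For B and plasma cell markers, 17 measured of 18, this was 4.06 and 0.00 in Nlrx1-/- hosts, against 0.00 and -0.14 in WT hosts. Jchain, the joining chain of secreted antibodies, had 11.02 and 5.10 in Nlrx1-/- hosts, against 3.72 and 4.17 in WT hosts, where it was under the negative control median in both pools, as in Nlrx1-/- replicate 2. Lymph node stroma markers, 10 measured of 11, stood at 2.30 and 0.41 in Nlrx1-/- hosts, against 0.07 and 0.13 in WT hosts, and T cell markers, 17 of 21, at 2.59 and 0.13, against 0.51 and 0.25. The follicle chemokine Cxcl13 had 15.18 and 6.98 in Nlrx1-/- hosts, against 4.61 and 7.82 in WT hosts, and Glycam1, of lymph node high endothelium, 12.93 and 5.55 against 4.98 and 4.78. Replicate 1 alone was high for these. The median host difference of the B cell list was 2.27, and 0.15 without replicate 1. That of the T cell list was 0.96, and -0.26 without it, and that of the lymph node list 1.16, and 0.44 without it. Replicate 1 of the Nlrx1-/- group was high for Glycam1 in the other lines too, with 12.75 in 4T1OE tumours and 13.16 on the parental array left out, while the other 9 arrays ran from 3.71 to 5.55.

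Skeletal muscle markers, all 24 measured, differed between replicates in both hosts, at 0.00 and 2.16 in Nlrx1-/- hosts, against 1.84 and 0.83 in WT hosts. As an example, Myh4, a fast myosin heavy chain, had 4.83 and 10.46 in Nlrx1-/- hosts, against 11.54 and 6.06 in WT hosts. Neutrophil markers, 17 measured of 18, were at -0.70 and 0.20 in Nlrx1-/- hosts, against 0.98 and 0.00 in WT hosts, and macrophage markers, 21 of 23, at -0.57 and -0.84, against -1.84 and 0.00. The part of these cell type genes in the epithelial, interferon and metabolic differences was not tested. Without Nlrx1-/- replicate 1 the difference of Cdh1 was -3.46, that of Krt7 -3.92, that of Tmprss11e -3.82 and that of Irgm2 -1.90, and the median of the interferon gamma list was -0.87.

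**Figure D4:**
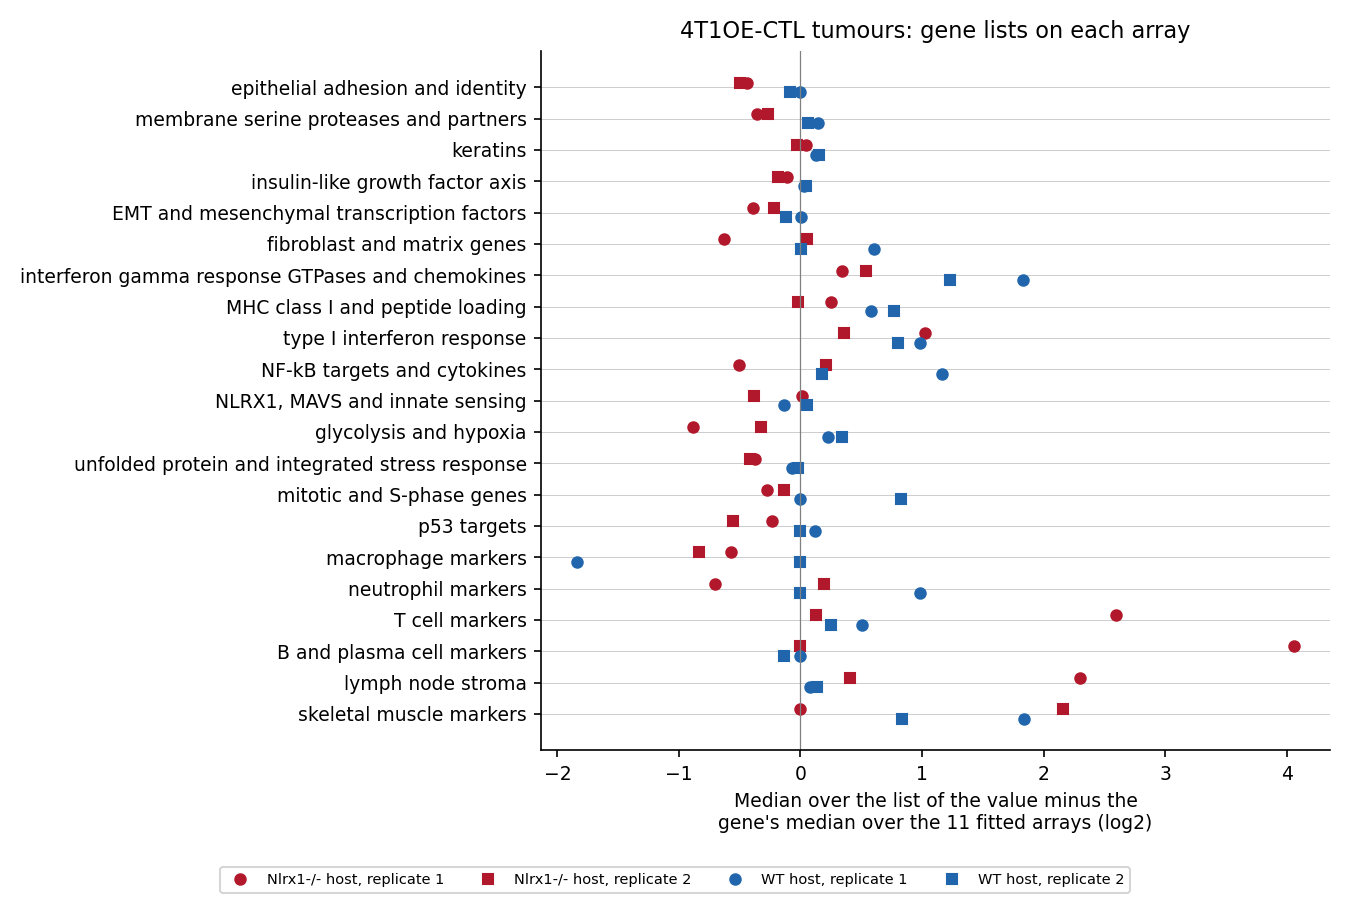
Gene lists in 4T1OE-CTL tumours, with the median deviation of each list's genes from their own medians over the 11 fitted arrays (x axis, log2), Nlrx1-/- hosts in red and WT hosts in blue, circles for replicate 1 and squares for replicate 2. Both Nlrx1-/- arrays are left of both WT arrays for interferon gamma response genes (0.34 and 0.54 against 1.83 and 1.23) and for glycolysis (-0.88 and -0.32 against 0.23 and 0.34), while 1 Nlrx1-/- array alone is at the right for B cell, T cell and lymph node genes.

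Whether the host difference in 4T1OE-CTL tumours was unlike that in the other lines was tested as the difference of the host differences. Against 4T1OE tumours 0 of 22206 features passed (0%; limma, smallest adjusted p 0.999), and 726 (3.27%) were under 0.05 unadjusted. Among features that met the naming rule for this contrast, the lowest were Krt7, Prss22, Npnt, Tmprss11e and Macc1. For both contrasts between lines the rule took only genes whose 4T1OE-CTL groups did not overlap. That choice by itself favours smaller differences in the other line. Krt7 had a host difference of -3.36 in 4T1OE-CTL and of 0.13 in 4T1OE tumours, which is -3.48 between them (SE 0.792, adjusted p = 0.999). Npnt, an integrin ligand of basement membranes, had -2.09 in 4T1OE-CTL and 0.88 in 4T1OE tumours. Its value in 4T1OE-CTL tumours was -0.93 without Nlrx1-/- replicate 2 and -3.25 without replicate 1. Prss22 had -3.59 in 4T1OE-CTL and -0.61 in 4T1OE tumours, and Macc1 -2.26 and 0.58. Tmprss11e had -3.38 and -0.48. Cdh1 had -3.36 in 4T1OE-CTL and -0.54 in 4T1OE tumours. In the other direction 4 genes met the rule, namely Defb45 (1.66 between the lines), Tppp (1.52), Sh3bgr (1.50) and Tubd1 (1.24).

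The epithelial list had a median host difference of -0.54 in 4T1OE-CTL tumours, against 0.11 in 4T1OE tumours, and the interferon gamma list -0.90 against 0.12. Glycolysis and hypoxia genes lay lower in Nlrx1-/- hosts in both lines, with medians of -0.87 and -0.34. In the 4T1OE comparison on its own 0 features passed (0%) and 194 had an unadjusted p under 0.05 (0.874%).

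Against parental tumours the difference of host differences also had 0 features passing (0%; limma, smallest adjusted p 0.594), with 1803 at an unadjusted p under 0.05 (8.12%). Its Nlrx1-/- parental side is 1 array, whose spread was taken from the other groups. Cdh1 lay lower in Nlrx1-/- hosts in parental tumours as well, by -2.26, and the interferon gamma list had a median of -1.34 there. That list's deviation was -2.33 on the fitted Nlrx1-/- array and -0.97 on the one left out, against -0.92 and -1.07 in WT hosts. The epithelial list had a median of -0.46 in parental tumours, with 26 of 33 genes lower, and the keratins one of -0.40, with 12 of 12 lower. Glycolysis and hypoxia genes went the other way in parental tumours, with a median of 0.59. The lowest genes by rule were Ccl3 (-4.50 between the lines), Prss22 (-4.47), Srgn, a granule proteoglycan (-4.05), Nt5e, the ectonucleotidase CD73 (-3.88), and Gzmf, a granzyme (-3.46). The highest were Ms4a4c (3.22), Ccl8 (3.18), Plac8 (2.96), Ifi44l (2.86) and Cxcl9 (2.84). For Cxcl9 the host difference was -1.40 in 4T1OE-CTL and -4.25 in parental tumours, so the positive value there is a smaller negative difference. For Gzmf it was 1.08 in 4T1OE-CTL and 4.54 in parental tumours, so its negative value is a smaller positive difference. Both parental values rest on the 1 fitted Nlrx1-/- array, and the array left out was unlike it. Cxcl9 had 6.52 on the fitted array and 12.29 on the one left out, against 10.37 and 11.16 in WT hosts. Gzmf had 12.66 on the fitted array and 7.94 on the one left out, against 7.58 and 8.64 in WT hosts.

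**Figure D5:**
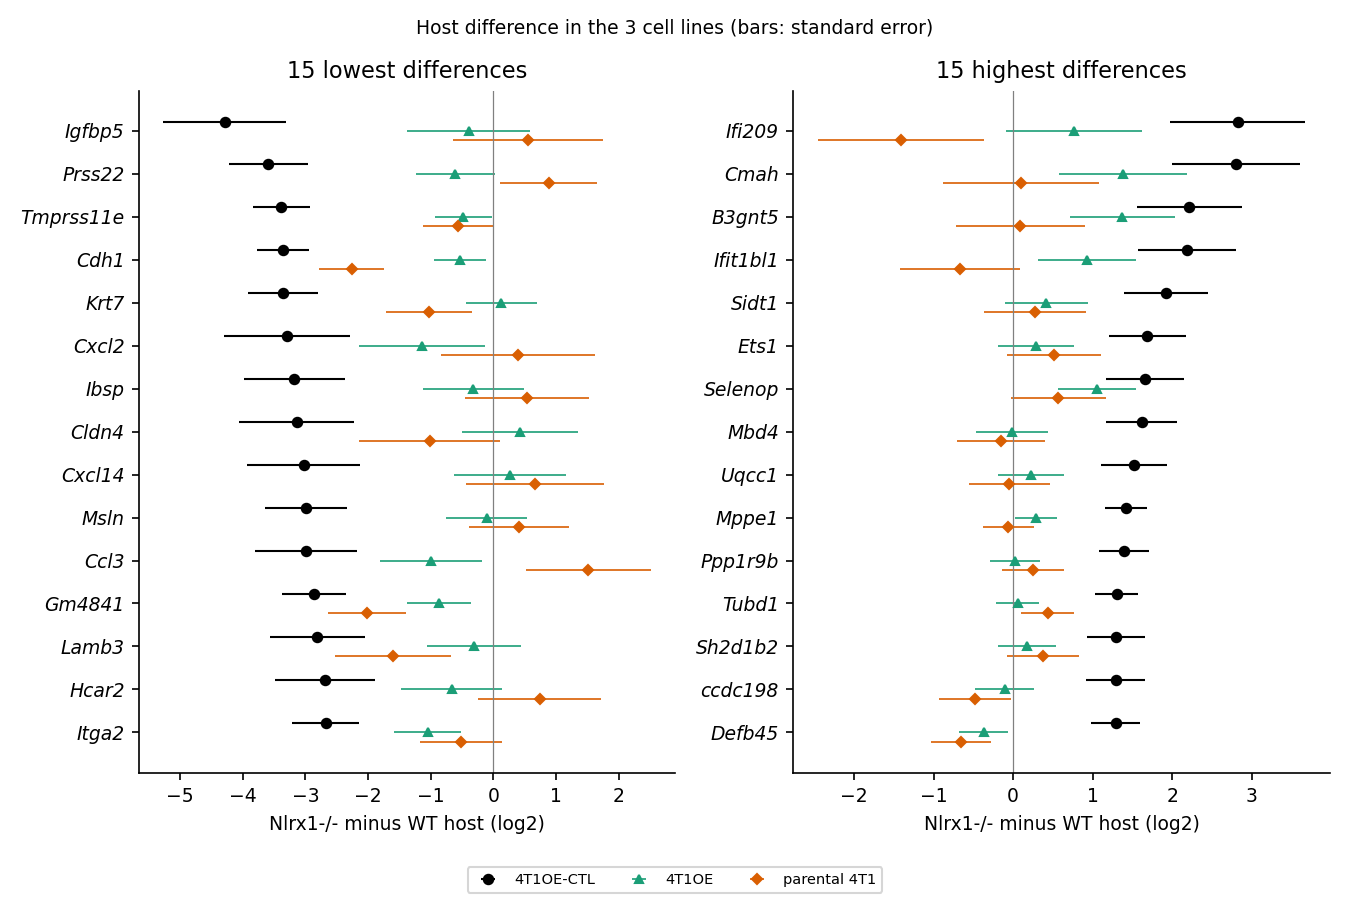
Host difference (x axis, Nlrx1-/- minus WT, log2, bars 1 standard error) of the 15 genes with the lowest and the 15 with the highest value in 4T1OE-CTL tumours (black circles), beside the same genes in 4T1OE (green triangles) and parental tumours (orange diamonds). Krt7 is at -3.36 in 4T1OE-CTL tumours and 0.13 in 4T1OE tumours, and Cdh1 is low in 4T1OE-CTL (-3.36) and parental tumours (-2.26). The genes were chosen by their values in 4T1OE-CTL tumours, which by itself favours smaller values in the other lines.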

How the data were processed

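The authors' deposited table gives 1 log2 value for each feature on each array. They were made with the Transcriptome Analysis Console, per the submitters' processing notes; the normalization method and build are not given in the sources used here. Values were used as deposited. Control features (6640: 6546 MG-1, 31 AFFX, 63 ERCC) were removed from 28846, and 22206 were tested. A gene symbol was assigned to 19572 of these through the platform annotation, and for the 55 genes with several features the brightest on average was used. The manufacturer's control column held no values. The labels recommend leaving out Nlrx1-/- parental replicate 1, so 11 arrays were fitted.

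Two-sided tests of differences came from limma 3.58.1 (R 4.3.3), with lmFit and eBayes on 1 mean for each of 6 groups, adjusted by Benjamini-Hochberg over all features at a threshold of 0.05. The arrays on each side number 2, which limits the precision. The fit was tested on simulated data. Where every array of a side lay under its median of the 5222 negative control features, the difference is given as a bound. For it, dim values under that median were raised to it before the sides' means were subtracted.

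Genes were named by 1 rule: the 4 markers and Nlrx1; the 15 highest and 15 lowest differences among features with an unadjusted p under 0.01, a mean above the median feature and groups without overlap; 5 in each direction for each difference between lines; and up to 5 members of smallest p of each list described. Other list members were chosen after their values were seen; these are Grhl1, Krt8, Ifng, Ifngr1, Ifngr2, Irf8 and Myh4. The 33 gene lists and the compared groups were chosen with earlier results of these data known. Promoters came from RefSeq (GRCm38.p6). Alternatives were all 12 arrays, quantile normalization, an intensity trend, dropping the dimmest 33.3% of features, array weights, the array standard deviation as a further term, the replicate number as a block, the compared groups alone, a fold rule and each array left out.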

Additional observations from a re-analysis of the deposited data

Results flagged for a closer look

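The Nlrx1-/- parental replicate 1 array, which the main fit leaves out, was high for the same cell type lists as Nlrx1-/- replicate 1 of 4T1OE-CTL tumours. It was set apart by lists that stood more than 1 log2 unit above every WT array. T cell markers deviated by 1.79 on it, B and plasma cell markers by 1.13 and lymph node stroma markers by 1.40. On Nlrx1-/- replicate 1 of 4T1OE-CTL tumours the same lists stood at 2.59, 4.06 and 2.30, and on that of 4T1OE tumours the B cell list stood at 2.91. Replicate 2 of the Nlrx1-/- 4T1OE-CTL group was at 0.13, 0.00 and 0.41.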

How the results depend on the processing

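The count of features past the adjusted threshold was 0 for each of the 3 comparisons under every alternative that adjusts p, with 1 exception. When each array's standard deviation was a covariate, 1 feature passed for the difference between 4T1OE-CTL and parental tumours, Krt77 (5.50, limma adjusted p = 0.0218), named after its value was seen. Leaving out any 1 of the 4 arrays gave 0 to 0 calls. The smallest adjusted p in 4T1OE-CTL tumours ranged from 0.0792 (without WT replicate 2) to 0.697 (compared groups alone). An unadjusted p under 0.05 with a fold of 2 or more was met by 908 features in 4T1OE-CTL tumours (233 higher, 675 lower in Nlrx1-/- hosts), by 571 for the difference from 4T1OE (177 higher, 394 lower) and by 1721 for that from parental tumours (587 higher, 1134 lower). Features at an unadjusted p under 0.05 numbered 868 with all 12 arrays and 3305 without Nlrx1-/- replicate 1, against 2121. The share of them that were higher was 34.2%, 45.2% with that covariate (1029 higher, 1248 lower) and 48.7% without Nlrx1-/- replicate 1 (1609 higher, 1696 lower). Replicate numbers did not pair the pools: deviations of same-numbered arrays from their group means correlated at -0.309 across features. With the replicate number as a block 0 features passed (smallest adjusted p 0.250), as with the crossed pairing, and without both arrays high in B cell genes, Nlrx1-/- replicate 1 of 4T1OE-CTL and of 4T1OE, the count was again 0. The last 2 settings were added after seeing the data. None of the 124 genes of the naming rule changed the sign of its host difference in 4T1OE-CTL tumours under the settings run. Genes named outside that rule, Ifng among them, were not in that count. Genes chosen for groups without overlap could not change sign when 1 array was left out. The fitted difference itself was unchanged with all 12 arrays, an intensity trend, array weights, a replicate block or the compared groups alone. Over the 33 lists and all settings, a list median moved by more than the spread between replicates 81 times and did not 381 times. Settings that leave the fitted difference unchanged count among the 381. With 2 pools a side, differences of dim genes, near the negative control features, were not resolved at this signal.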

Other observations

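Autophagy and lysosome genes in 4T1OE-CTL tumours lay lower in Nlrx1-/- hosts for 18 of 23 measured, 9 without overlap (18% of all features). Another 2 lay higher without overlap (16.1% of all features), and the median was -0.24. That median was -0.10 after quantile normalization and 0.03 when the array standard deviation was a covariate. Oxidative phosphorylation genes lay lower for 19 of 30, with a median of -0.15 that was 0.23 without WT replicate 2 and 0.32 with that covariate. MHC class II genes, with which professional antigen-presenting cells show peptides, had a median of -0.12 over 11 measured genes and stood at 1.45 and 0.05 on the Nlrx1-/- arrays, against 0.34 and 1.25 on the WT arrays. Their median was -1.21 without Nlrx1-/- replicate 1 and 0.67 without replicate 2. Other medians also shifted with single arrays. Without Nlrx1-/- replicate 1 the dendritic cell list had -0.43 (0.02 with it), the NK and cytotoxic list -0.10 (0.21), the endothelial list -0.08 (0.18), the pericyte list -0.19 (0.06) and the adipocyte list 0.37 (0.14). The mammary secretory list had 0.11, and 0.40 without WT replicate 1.

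A pair of genes outside the naming lists, chosen after their values were seen, were as even as Cdh1 across the pools. Plet1, a surface protein of progenitor cells, had 7.82 and 7.79 in Nlrx1-/- hosts, against 10.04 and 10.67 in WT hosts, a difference of -2.55 (SE 0.324, limma adjusted p = 0.125). Elovl6, a fatty acid elongase, had 7.61 and 7.87 in Nlrx1-/- hosts, against 9.79 and 9.75 in WT hosts, a difference of -2.03 (SE 0.267, limma adjusted p = 0.125).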
